A study of Rattus norvegicus with 6 samples.

Results

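Transcripts of 6 reparative and growth factors, Arg1, Il10, Tgfb1, Igf1, Vegfa and Spp1, were followed in macrophages of the infarcted rat heart. They were grouped by name as products of healing macrophages and were found by their Ensembl identifiers, which are ENSRNOG00000013304, ENSRNOG00000004647, ENSRNOG00000020652, ENSRNOG00000004517, ENSRNOG00000019598 and ENSRNOG00000043451 in the same order. All 6 were among the 33884 genes of the count table, and all 6 were among the 12756 genes with enough reads for a test. The study compared WT with Dusp6-deficient rats (genotype Dusp6-/- in the sample labels), with 3 libraries of each. DUSP6 is a phosphatase that switches off the MAP kinases ERK1/2.

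Both genotypes were Sprague Dawley rats with a myocardial infarction (MI) of 72 h. Per the study's methods, the rats were males of 8 to 10 weeks, the coronary artery was ligated without reperfusion, and cells positive for the leukocyte protein CD45 and the rat macrophage antibody HIS36 were sorted from the infarcted tissue. The Dusp6-deficient rats came from 1 mutant line in which an adenine inserted into exon 1 causes a premature stop, so all of their cells carried the mutation, cardiomyocytes and neutrophils as well as macrophages. No sham-operated rats were sequenced in these libraries, and the number of rats behind each library is not given in the sources used here. If a library is not a separate rat, the p-values measure a spread that is partly technical.

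In a healing infarct, macrophages first clear dead tissue and then turn to repair. Arginase-1, encoded by Arg1, converts arginine to ornithine, the precursor of polyamines and of proline for collagen. Interleukin-10 (Il10) is a cytokine that restrains inflammatory gene expression in macrophages through STAT3. TGF-beta1 (Tgfb1) is secreted in a latent form, and once activated it drives fibroblasts to make matrix. IGF-1 (Igf1) is a growth and survival factor for muscle and other cells. VEGF-A (Vegfa) stimulates endothelial cells to form vessels and is a known target of hypoxia signalling. Osteopontin (Spp1) is a secreted matrix protein that binds integrins and CD44, and it is abundant in macrophages of injured hearts.

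Library totals ranged from 12089585 to 17274938 reads counted on genes. A floor of 3 counts, below which a gene was regarded as undetected, equals 0.172 to 0.242 CPM (counts relative to the TMM-scaled size of the library), a limit that covers counting error only. All 6 transcripts lay far above the floor, with at least 143 counts in every library. On the first principal component of all genes tested, Dusp6-deficient replicate 1 stood apart from its group, with a score of 4.48 against 53.5 and 65.0 for the other two Dusp6-deficient libraries and -49.7 to -35.9 for WT. The table does not pair identifiers with gene names, so Dusp6 itself, markers that would check the sorted cell type, and the other genes of the pathways were not analysed here. In sorted bulk cells, a lower level in each cell and fewer expressing cells cannot be told apart.

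For Vegfa and Tgfb1, the region before the annotated transcription start is shown as the setting of the results that follow, because these were the factors with a promoter entry whose levels did not overlap between the genotypes. Each sequence holds the 250 bases upstream of the start, 5′ to 3′, from RefSeq on the rat build GRCr8, and 4 of the 6 factors had such an entry. Capitals mark matches to the GC box, searched as GGGCGG on both strands. The Vegfa sequence lies at chr9:22452604-22452853 and the Tgfb1 sequence at chr1:90324062-90324311, both on the + strand.
Vegfa: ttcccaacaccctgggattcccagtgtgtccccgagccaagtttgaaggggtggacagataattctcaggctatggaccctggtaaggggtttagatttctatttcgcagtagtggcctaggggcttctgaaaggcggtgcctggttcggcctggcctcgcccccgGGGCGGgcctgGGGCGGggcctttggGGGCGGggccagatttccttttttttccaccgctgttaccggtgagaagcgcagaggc
Tgfb1: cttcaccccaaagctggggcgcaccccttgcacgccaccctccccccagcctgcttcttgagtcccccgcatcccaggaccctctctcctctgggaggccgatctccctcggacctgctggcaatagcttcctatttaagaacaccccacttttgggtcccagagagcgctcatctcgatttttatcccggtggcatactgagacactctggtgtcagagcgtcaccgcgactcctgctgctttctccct
Upstream of Vegfa, 3 GC boxes began 84, 73 and 58 bases before the start, and 30.5% of 33465 promoter windows of the same length held at least 1. The Tgfb1 window held none. The core of hypoxia response elements, searched as ACGTG on both strands, was found in neither window, and it was present in 16.6% of all windows. The AP-1 site TGANTCA, which ERK-induced factors can bind, was in neither window and was present in 6.34% of all. The C/EBP pattern TTNNGNAA occurred once in the Vegfa window, 125 bases before the start, and in 37.2% of all windows. Vegfa has a second annotated start with a window of its own, which held no GC box. These matches describe letters in a short window and are not binding sites. Bases further upstream were not searched, so a pattern absent from a window may lie elsewhere near the gene.

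Il10 was the factor with the largest difference. Its transcript was at 8.55, 8.90 and 10.4 CPM in WT replicates 1, 2 and 3, and at 16.3, 44.4 and 38.3 CPM in the Dusp6-deficient replicates. The counts behind these levels were 144, 154 and 143 in WT and 285, 550 and 479 in Dusp6-deficient macrophages. The WT libraries lay close together, the Dusp6-deficient libraries were spread out, and the lowest Dusp6-deficient library was 1.57 times the highest WT library. The WT mean of 9.29 ± 0.994 CPM (SD, n = 3) compared with a Dusp6-deficient mean of 33.0 ± 14.8 CPM (SD, n = 3). EdgeR's quasi-likelihood test gave a log2 fold change of 1.83 (standard error 0.36, 95% interval 1.01 to 2.64), a 3.55-fold higher level, with a Benjamini-Hochberg adjusted p of 0.0257 over all genes. This change was larger in size than that of 97.2% of the genes tested. In edgeR's test, Il10 was the only one of the 6 factors past both thresholds of the study. These require an adjusted p under 0.05 together with a log2 change of more than 1, and 3.47% of all genes passed them as higher. No factor passed them as lower, against 2.16% of all genes. The study applied these thresholds to another test, DESeq2. That test gave Il10 a log2 fold change of 1.79 with an adjusted p of 7.55e-05.

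The library that stood apart held the lowest Il10 level of its group. Dusp6-deficient replicate 1 was at 39.5% of the 41.4 CPM that the other two Dusp6-deficient libraries had on average. Without it, the log2 fold change was 2.11 with an adjusted p of 0.00306 from the same edgeR test. The call was lost when any 1 of the 5 other libraries was left out, although the log2 fold change stayed between 1.54 and 1.87. The adjusted p from edgeR was 0.0917, 0.0829 and 0.0596 without WT replicates 1, 2 and 3, and 0.0980 and 0.122 without Dusp6-deficient replicates 2 and 3. The whole table moved in the same way. Of all genes, 717 passed both thresholds with all 6 libraries and 2051 without Dusp6-deficient replicate 1. Without WT replicates 1, 2 and 3 the number was 18, 13 and 148, and without Dusp6-deficient replicates 2 and 3 it was 8 and 7.

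Vegfa moved the other way. Its transcript was at 28.6, 22.5 and 22.4 CPM in the WT libraries and at 12.4, 12.5 and 15.2 CPM in the Dusp6-deficient libraries. Both groups were compact, and every Dusp6-deficient library was below every WT library, the lowest WT library being 1.47 times the highest Dusp6-deficient one. The counts were 481, 390 and 307 against 217, 155 and 190. The WT mean of 24.5 ± 3.53 CPM (SD, n = 3) compared with a Dusp6-deficient mean of 13.4 ± 1.58 CPM (SD, n = 3), 1.83-fold lower. The log2 fold change was -0.87 (standard error 0.22, 95% interval -1.37 to -0.38), with an adjusted p of 0.0445 from edgeR's test. Vegfa was therefore past the threshold on the adjusted p, which 2.67% of all genes passed as lower, and short of the threshold on the fold change. On edgeR's adjusted p alone 1 factor was higher, Il10, against 5.55% of all genes. DESeq2, the test the study used, gave Vegfa a log2 fold change of -0.91 with an adjusted p of 0.00888.

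For Vegfa, the library that stood apart was close to its group. Dusp6-deficient replicate 1 was at 89.7% of the mean of the other two, and without it the log2 fold change was -0.87 with an adjusted p of 0.0244 from edgeR's test. The threshold was missed when any 1 of the 5 other libraries was left out. The adjusted p was 0.167, 0.109 and 0.0828 without WT replicates 1, 2 and 3 and 0.141 and 0.129 without Dusp6-deficient replicates 2 and 3, with log2 fold changes from -1.01 to -0.78. In these 5 fits, 7 to 148 of all genes passed both thresholds, against 717 with all 6 libraries. The threshold was also missed, with an adjusted p of 0.0501, when genes of low count were kept in the fit. With the replicate number added to the fit as a block, edgeR's adjusted p was 0.0944. Libraries of the same number did not deviate together over all genes, which does not exclude a pairing.

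**Figure D1:**
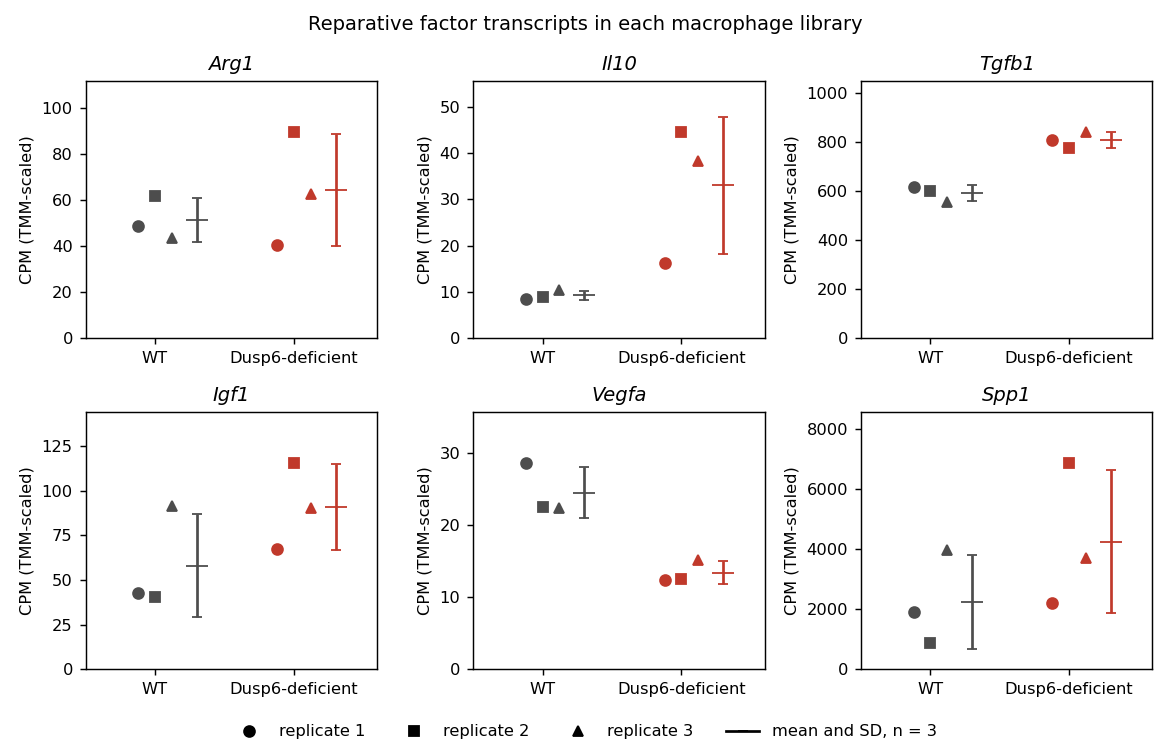
Each panel shows 1 factor, with the level in TMM-scaled CPM on the vertical axis and the 2 genotypes on the horizontal axis; points are libraries, marker shapes are replicate numbers, and the bars give the mean and SD of 3 libraries. Il10 and Tgfb1 are higher and Vegfa is lower in every Dusp6-deficient library than in every WT library, while Arg1, Igf1 and Spp1 overlap.

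Tgfb1 was the most even of the 6 factors within each genotype. It was at 617, 602 and 555 CPM in WT and at 811, 776 and 840 CPM in Dusp6-deficient macrophages. All Dusp6-deficient libraries were above all WT libraries, and the gap between the groups was 1.26-fold. The WT mean of 591 ± 32.5 CPM (SD, n = 3) compared with a Dusp6-deficient mean of 809 ± 31.8 CPM (SD, n = 3). The log2 fold change was 0.45 (standard error 0.18, 95% interval 0.05 to 0.85), and the adjusted p was 0.127 from edgeR's test, so the difference did not pass. Its size depended on the scaling of the libraries: with library totals alone, a choice made after seeing the data, the log2 fold change was 0.22. That scaling moved the median of all genes to -0.21 on the log2 scale, from 0.02 with TMM, so the shift was not particular to Tgfb1. The TMM factors were 1.05 to 1.14 in WT and 0.874 to 1.01 in Dusp6-deficient libraries.

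Together, Il10 and Tgfb1 were the factors whose Dusp6-deficient libraries all lay above WT, which was so for 17.8% of all genes tested. Vegfa was the factor whose Dusp6-deficient libraries all lay below WT, which was so for 16.3% of all genes. The same 3 factors were free of overlap with TMM, RLE and upper-quartile scaling and with library totals alone. With 3 libraries against 3, an exact permutation test of a single gene cannot give a two-sided p below 0.1. Each of the 3 reached that value, which follows from the lack of overlap and adds no support to it.

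The ratio of the reads of a pair of genes within a library needs no scaling. Per read of Vegfa there were 0.299, 0.395 and 0.466 reads of Il10 in the WT libraries and 1.31, 3.55 and 2.52 in the Dusp6-deficient libraries. Vegfa reads outnumbered Il10 reads in every WT library, and Il10 reads outnumbered Vegfa reads in every Dusp6-deficient library. Per read of Vegfa there were 21.6, 26.7 and 24.8 reads of Tgfb1 in WT and 65.2, 62.0 and 55.2 in Dusp6-deficient macrophages, and here Dusp6-deficient replicate 1 had the highest ratio of all libraries. Reads also scale with transcript length, so these ratios compare libraries and not the number of molecules of each gene. Il10 and Tgfb1 had been seen higher and Vegfa lower in every Dusp6-deficient library, so the lack of overlap in these ratios follows from the levels and adds no support to them. Other pairs were less apart. Reads of Il10 per read of Arg1 were at most 0.239 in WT and at least 0.401 in Dusp6-deficient libraries. For Igf1 per read of Vegfa these limits were 4.07 and 5.41, and for Il10 per read of Tgfb1 they were 0.0188 and 0.0201. Reads of Spp1 per read of Tgfb1 overlapped, at 1.44 to 7.15 in WT and 2.71 to 8.84 in Dusp6-deficient libraries.

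**Figure D2:**
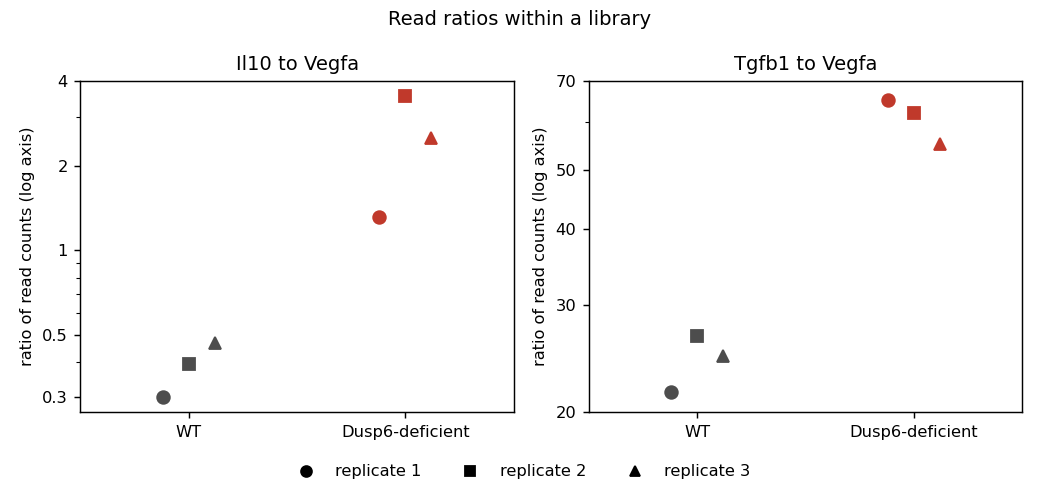
The vertical axes, which are logarithmic, give reads of Il10 (left) and of Tgfb1 (right) per read of Vegfa in each library, by genotype on the horizontal axis; marker shapes are replicate numbers. Il10 to Vegfa is at most 0.466 in WT and at least 1.31 in Dusp6-deficient libraries, a gap that follows from the levels of the pair.

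Igf1 was at 42.6, 40.2 and 91.1 CPM in WT and at 67.2, 115 and 90.1 CPM in Dusp6-deficient macrophages. WT replicate 3 was well above the other WT libraries and above Dusp6-deficient replicate 1, so the groups overlapped. It was level with Dusp6-deficient replicate 3 within counting error, at 91.1 and 90.1 CPM. The WT mean of 58.0 ± 28.7 CPM (SD, n = 3) compared with a Dusp6-deficient mean of 90.8 ± 24.0 CPM (SD, n = 3). The log2 fold change was 0.65 (standard error 0.34, 95% interval -0.13 to 1.43), and edgeR's adjusted p was 0.233. The value depended on single libraries. Its log2 fold change was 1.09 without WT replicate 3, 0.43 without WT replicate 1 or Dusp6-deficient replicate 2, and 0.44 without WT replicate 2, and with library totals alone it was 0.38. None of these fits passed, with adjusted p values from 0.0724 to 0.529 in the same test.

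Spp1 had the widest spread. Its transcript was at 1893, 865 and 3967 CPM in WT and at 2199, 6860 and 3691 CPM in Dusp6-deficient macrophages. Levels differed 4.59-fold among the WT libraries and 3.12-fold among the Dusp6-deficient libraries, and the groups overlapped. The WT mean of 2242 ± 1580 CPM (SD, n = 3) compared with a Dusp6-deficient mean of 4250 ± 2381 CPM (SD, n = 3). The log2 fold change was 0.92 (standard error 0.56, 95% interval -0.34 to 2.18) and edgeR's adjusted p was 0.288. The interval spans levels from 0.791 to 4.54 times those of WT. The log2 fold change was 1.57 without WT replicate 3 and 0.38 without Dusp6-deficient replicate 2, and neither fit passed, with adjusted p values of 0.115 and 0.721 from edgeR's test.

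Arg1 was at 48.7, 61.9 and 43.6 CPM in WT and at 40.7, 89.5 and 62.9 CPM in Dusp6-deficient macrophages. The lowest and the highest of the 6 libraries were both Dusp6-deficient, and the groups overlapped. The WT mean of 51.4 ± 9.41 CPM (SD, n = 3) compared with a Dusp6-deficient mean of 64.3 ± 24.4 CPM (SD, n = 3). The log2 fold change was 0.32 (standard error 0.29, 95% interval -0.34 to 0.98), with an adjusted p of 0.475 from edgeR's test. Without Dusp6-deficient replicate 2 it was -0.0041 with an adjusted p of 0.995, so the sign rested on that library.

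**Figure D3:**
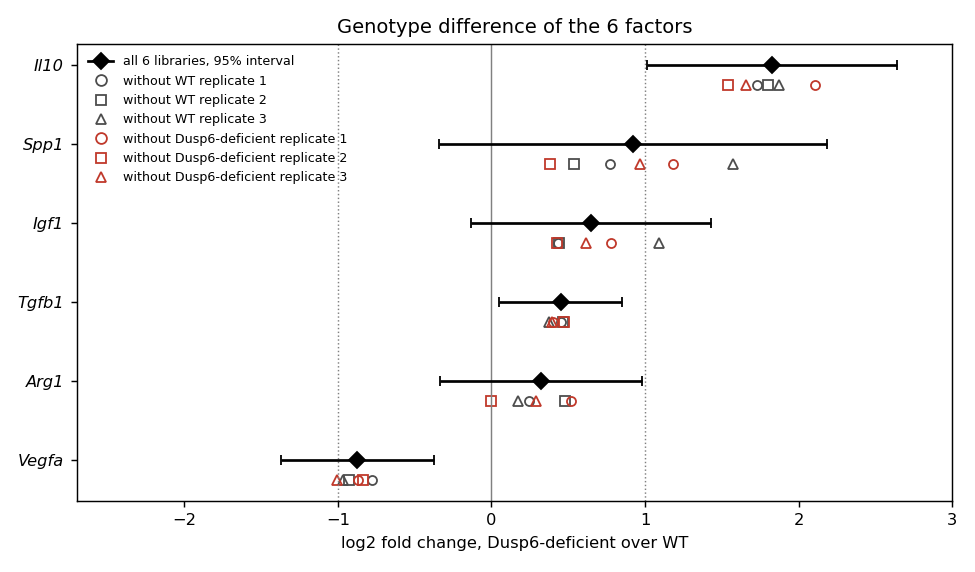
The horizontal axis gives the log2 fold change of Dusp6-deficient over WT for each factor; diamonds with bars are the fit of all 6 libraries with its 95% interval, open markers below them are the fits that each leave out 1 library, and dotted lines mark the fold change threshold of 1. Il10 lies beyond 1 in every fit, from 1.54 to 2.11, Vegfa stays below 0, and the open markers of Spp1 spread from 0.38 to 1.57.

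Over the 6 factors, 5 log2 fold changes were above 0 and the median was 0.55, beside 0.02 for all genes tested, of which 51.4% were above 0. Only the Il10 and Vegfa values passed the threshold on the adjusted p, so the other 4 signs are not established by the test.

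The spread between libraries of one genotype was far above counting error for most of the factors. EdgeR estimates the biological coefficient of variation after counting error is removed. The estimate is pooled over both genotypes and drawn toward that of genes of similar level. It is therefore not the measured spread of a gene. It was 47.4% for Spp1, higher than for 91.4% of the genes tested, whose median was 28.6%. For abundant genes this was an unusual value: of 135 genes with a mean of at least 10 on the log2 CPM scale, 2 had a higher one. Tgfb1 lay at the other end, at 19.7%, higher than for 4.66% of the genes. The Tgfb1 levels themselves varied less, by 5.50% within WT and by 3.93% within Dusp6-deficient libraries. Vegfa had 22.4%, Arg1 27.2%, Igf1 31.2% and Il10 32.0%. Within WT, the Il10 levels varied by 10.7%, beside the 8.25% that counting alone gives at these read numbers. Within Dusp6-deficient macrophages they varied by 44.7% against 4.78% from counting.

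**Figure D4:**
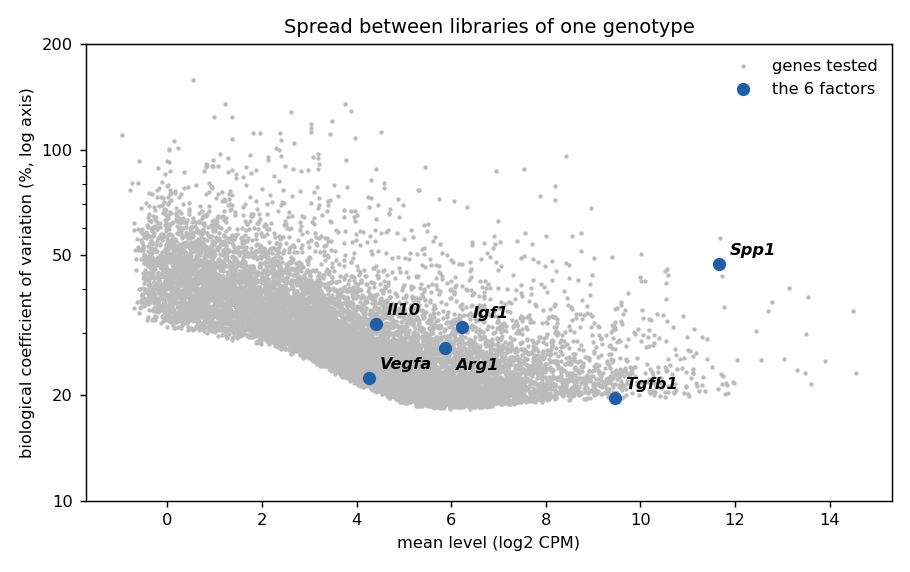
The horizontal axis gives the mean level in log2 CPM. The vertical axis, which is logarithmic, gives edgeR's estimate of the biological coefficient of variation in percent. This estimate pools both genotypes and is drawn toward that of genes of similar level. Grey points are the genes tested and blue points the 6 factors. Spp1, at 47.4%, is among the most variable genes of its abundance, and Tgfb1, at 19.7%, lies near the lower edge.

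The factors did not vary together in one way. Spp1 and Igf1 had the same order of levels over the 6 libraries (Pearson correlation of log2 CPM 0.94, Spearman 1, n = 6 libraries that share the genotype difference, given as a description). In WT, replicate 3 was the highest library for both, and it was the lowest for Arg1, Tgfb1 and Vegfa. For Vegfa it was level with replicate 2 within counting error, at 22.4 and 22.5 CPM. In Dusp6-deficient macrophages, replicate 2 was the highest library for Arg1, Il10, Igf1 and Spp1 and the lowest for Tgfb1. The Dusp6-deficient library that stood apart was the lowest of its group for Arg1, Il10, Igf1, Vegfa and Spp1. For Vegfa it was level with replicate 2 within counting error, at 12.4 and 12.5 CPM. For Spp1 it stood at 41.7% of the mean of the other two, for Arg1 at 53.4% and for Igf1 at 65.5%. For Tgfb1 it stood at 100.4%.

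More genes shared their pattern over the libraries with Il10 and Tgfb1 than with the other factors. The number for a typical gene was not counted. Of 8268 other genes with a mean of at least 3 on the log2 CPM scale, 411 had a Pearson correlation of log2 CPM above 0.95 with Il10 over the 6 libraries, and 371 had one with Tgfb1. The number was 31 for Igf1, 31 for Vegfa, 25 for Arg1 and 17 for Spp1. These are descriptions of 6 libraries in which the genotype difference enters every correlation. The genes most like a factor could not be named, and the identifier closest to Il10 was ENSRNOG00000005840 (correlation 0.997) and that closest to Vegfa was ENSRNOG00000010227 (correlation 0.993).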

How the data were processed

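The sample labels and the study's methods state that libraries were made from total RNA of sorted macrophages with the KAPA RNA HyperPrep kit. Reads were trimmed (Trim Galore), aligned to rat rnor6 (HISAT2) and assigned to genes (featureCounts 1.5.0-p3) by the authors, who deposited the raw counts. The annotation release, the strand setting and the handling of multi-mapping reads are not given in the sources used here, so overlapping genes could share reads.

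Counts were fitted in R 4.3.3 with edgeR 4.0.16 (filterByExpr, TMM scaling, quasi-likelihood test of genotype, 12756 genes, Benjamini-Hochberg adjustment over all of them). CPM used TMM-scaled library sizes, and log2 CPM had a prior count of 2. Standard errors were derived from the F statistic, and intervals are at the 95% level and are not adjusted for multiple genes. The study's own test was DESeq2, which was an alternative here (version 1.42.0). Other alternatives were RLE and upper-quartile scaling, other filters, the replicate block and leaving out each library. Library totals alone and DESeq2 with the block were added after the data were seen. The scripts' tests were tried on simulated data. Within each genotype, no library repeated another's counts. The members and the gene lists were chosen with earlier results of these data known. The factors were paired with identifiers by the choice of the set, and 0 of 33884 identifiers matched the table of gene names. The 8 lists of pathway genes and 7 lists of cell type markers were therefore not analysed here, and the rule for named genes, which took genes from these lists and genes with a symbol most like a factor, named only the 6 factors. Motifs were searched on both strands of the 250 bases before each RefSeq start of build GRCr8, which is not the build the reads were aligned to.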

Additional observations from a re-analysis of the deposited data

How the results depend on the processing

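Over the 14 alternative fits of each of the 6 factors, 71 of 84 values kept their direction and their side of the adjusted p threshold of 0.05, 12 fell back over it and 1 turned its sign. The adjusted p of Il10 ran from 7.55e-05 to 0.122 and was under 0.05 in 9 of the 14, and that of Vegfa ran from 0.00888 to 0.167 and was under 0.05 in 7. Both lowest values came from DESeq2 without the block, the study's test. Without one library at a time, the log2 fold change ran from 1.54 to 2.11 for Il10, from -1.01 to -0.78 for Vegfa, from 0.43 to 1.09 for Igf1 and from -0.0041 to 0.52 for Arg1, which turned below 0 without Dusp6-deficient replicate 2. The number of factors called higher ran from 0 to 1 over these fits. The fits with 0 called 1 to 68 of all genes as higher, against 442 with all 6 libraries. The Vegfa log2 fold change was -0.87 with an adjusted p of 0.0501 with no filter on low counts.

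Over all genes, the replicate numbers showed no pairing of the libraries. The deviations from the group mean correlated at 0.106, -0.118 and -0.139 within the pairs of one number. Of 6 libraries, 2 correlated best with their own number. These values cannot exclude a pairing that touches only some genes. With the replicate block, Vegfa had a log2 fold change of -0.87 and an adjusted p of 0.0944 from edgeR's test, and the call of Il10 held. The number of all genes called was 486 with the block and 717 without it.

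The number of factors called lower was 1, Vegfa, on the adjusted p alone, which 2.67% of all genes passed as lower. It was 1, again Vegfa, with library totals alone (log2 fold change -1.11), which was added after the data were seen. With library totals, 412 of all genes were called lower and 170 higher, and the median log2 fold change of all genes was -0.21. The share of higher genes among all genes called was 61.6% with TMM, 50.2% with upper-quartile scaling, 29.2% with library totals alone and 49.4% with DESeq2, which called 1298 genes. What causes these differences was not tested. Keeping genes of low count gave 983 called genes. Without one library at a time, 7 to 2051 genes were called, the highest number without Dusp6-deficient replicate 1. The lists of pathway genes and markers have no values under any setting. Counting error was a large part of the coefficient of variation for Il10 in WT, at 8.25% against 10.7% over 3 libraries. Counting error was 7.31% against 11.8% for Vegfa in Dusp6-deficient libraries. It was at most 3.47% for Arg1, Igf1, Tgfb1 and Spp1.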
